A study of Mus musculus with 27 samples.

Results

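RNA-seq of sorted motor cortex nuclei was used to ask what a Cas13 effector guided to human C9ORF72 RNA did to the transcriptome of mice that carry the human gene with its repeat expansion. The 12 libraries compared, out of 27 in the series, came from C9-BACexp mice that received the effector with crRNA-13 (n = 6) or with a non-targeted guide, NTG (n = 6). They were chosen by their labels, and each library is 1 mouse. All 12 mice were C57BL/6J animals of the line Tg(C9ORF72_i3)112Lutzy, which carries a bacterial artificial chromosome that spans the full human C9ORF72 gene with an expanded GGGGCC repeat, beside the intact mouse gene. At 6 weeks of age both groups were injected in the motor cortex with 2 AAV vectors of the PHP.eB capsid. One carried the effector under the ubiquitous CAG promoter with the guide under a U6 promoter, and the other carried EGFP-KASH, a green fluorescent protein anchored to the nuclear envelope, also under CAG. Nuclei positive for EGFP-KASH were sorted 2 months later, so the RNA is nuclear and from every transduced cell type, mostly neurons. The study's methods name the high-fidelity effector RfxCas13d-N2V8 for both guides, whereas the labels of the NTG group name RfxCas13d. In such bulk nuclei fewer cells of a type and less RNA per cell cannot be told apart.

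Cas13 enzymes are RNA-guided ribonucleases: the guide base-pairs with an RNA, which the enzyme then cuts, and some Cas13 enzymes also cut bystander RNA once active. Human C9ORF72 has 3 annotated transcripts. V1 and V3 start at exon 1a, upstream of the intronic repeat, so that they carry it as precursors, and crRNA-13 is directed at exon 1a. V2 starts at exon 1b, downstream of the repeat, and lacks the target, and both V2 and V3 encode the long protein isoform. The interferon response is the innate defence in which type I interferons switch on antiviral genes and MHC class I antigen presentation. Immediate early genes are those, such as Fos and Jun, that neurons transcribe within minutes of activity without new protein synthesis.

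Total estimated counts were 22457876 to 30990901 in the 6 crRNA-13 libraries (median 29312259) and 23251069 to 36777972 in the 6 NTG libraries (median 26799241). At these depths 3 counts amount to between 0.0801 and 0.135 CPM, counts taken relative to the library's scaled sum. Rank correlations between the 12 libraries lay between 0.933 and 0.971, and no 2 libraries were identical. Several crRNA-13 mice stood apart. Mouse 1 had the highest summed level of oligodendrocyte markers, and mouse 2 the highest levels of EGFP-KASH, of interferon-stimulated genes and of immediate early genes, and the results that rest on them are given with and without these mice. Levels of Xist, transcribed from the inactive X chromosome of females, and of the Y-linked Ddx3y marked 4 crRNA-13 and 3 NTG libraries as female and the rest as male.

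The targeted RNA was measured first. Transcripts V1 and V3, which hold the target of crRNA-13, lay lower on average in crRNA-13 mice and V2 did not, but with adjustment over the 6 quantities tested none of these differences passed. V3 measured 31.5, 26.7, 12.9, 23.4, 9.34 and 22 CPM in crRNA-13 mice 1, 2, 3, 4, 6 and 7, against 32.9, 31.6, 25.1, 32.4, 26.8 and 25.9 CPM in NTG mice 1 to 6. The 4 lowest values were all from crRNA-13 mice, while mice 1 and 2 lay within the NTG range. The mean difference of V3 was -0.57 on the log2(CPM + 0.5) scale (two-sided exact permutation test over 924 arrangements, p = 0.0455, adjusted p = 0.201). Leaving out 1 library at a time gave differences between -0.36, without crRNA-13 mouse 6, the lowest of its group (adjusted p = 0.318 by the exact permutation test), and -0.70, without crRNA-13 mouse 1, the highest of its group (adjusted p = 0.0390). In the other 10 of these comparisons the adjusted p missed 0.05. V1 measured 14.3 to 26.4 CPM in crRNA-13 mice (median 19.4) and 20.8 to 29.1 CPM in NTG mice (median 22.9). The V1 ranges overlapped, with 4 crRNA-13 mice under the lowest NTG mouse and a difference of -0.34 (exact permutation p = 0.0671, adjusted p = 0.201). V2, which lacks the target, measured 30.0 to 48.0 CPM in crRNA-13 mice (median 46.7) and 30.1 to 49.3 CPM in NTG mice (median 36.3). Its difference of 0.18 was within the spread between mice (exact permutation p = 0.240, adjusted p = 0.435). The 3 transcripts together summed to 64.1 to 99.8 CPM in crRNA-13 mice (median 83.5) and 80.6 to 103 CPM in NTG mice (median 89.2), a difference of -0.14 (exact permutation p = 0.290, adjusted p = 0.435). In the edgeR quasi-likelihood fit across all genes, the log2 fold changes were -0.34 (SE 0.15) for V1, 0.20 (SE 0.27) for V2 and -0.59 (SE 0.16) for V3, with adjusted p = 0.304, 0.781 and 0.0884.

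**Figure D1:**
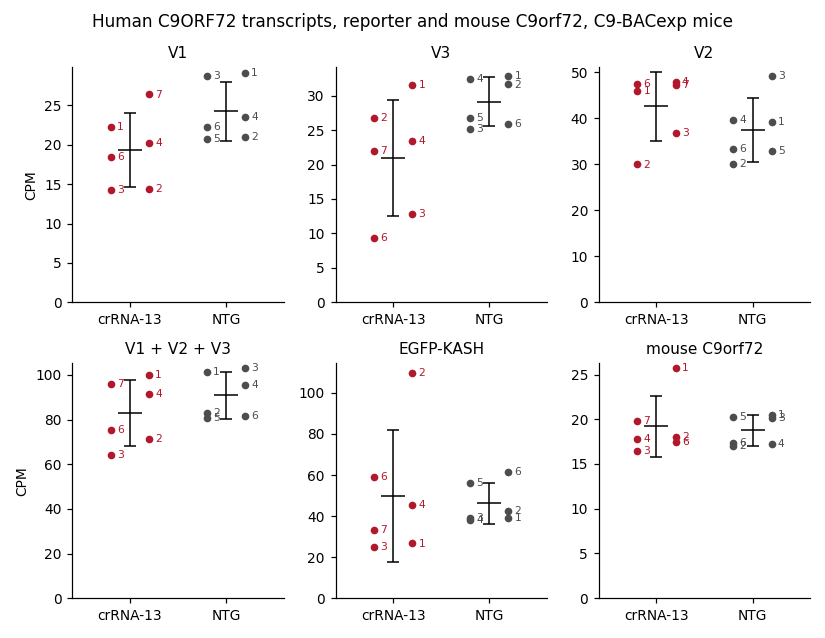
Levels of the human C9ORF72 transcripts V1, V3 and V2, their sum, EGFP-KASH and mouse C9orf72 in CPM (vertical axes) in crRNA-13 and NTG C9-BACexp mice; each point is 1 mouse with its number, and bars give the mean ± SD (n = 6 each). V3 spans 9.34 to 31.5 CPM in crRNA-13 mice and 25.1 to 32.9 CPM in NTG mice, while V2 and mouse C9orf72 span overlapping ranges.

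The balance of the transcripts within each library was compared as well. The ratio of V1 + V3 to V2, a measure chosen after the values were seen, was 1.17, 1.37, 0.734, 0.910, 0.585 and 1.02 in crRNA-13 mice 1, 2, 3, 4, 6 and 7. In NTG mice 1 to 6 it was 1.58, 1.75, 1.09, 1.41, 1.44 and 1.44. All crRNA-13 mice but 1 and 2 lay under the lowest NTG mouse, and the medians were 0.966 in crRNA-13 mice and 1.44 in NTG mice. The log2 difference was -0.63 (two-sided exact permutation p = 0.0130), and with each library left out in turn it stayed between -0.74 and -0.50 (exact permutation p = 0.00649 to 0.0260). These p-values are unadjusted and, with the measure chosen on the same values, are no independent test. Because most of their sequence is shared, the split of reads between the 3 transcripts is an estimate. In the EGFP-KASH-only C9-BACexp mice, V2 was estimated at 0 in 1 library and at 47.4 and 48.3 CPM in the others. Human C9ORF72 was listed at 0 in 11 of the 12 libraries of C57BL/6J mice, which lack the transgene, and summed to 0.436 CPM in a crRNA-13 library.

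The mouse gene and its partners did not pass any test. Mouse C9orf72 measured 16.4 to 25.7 CPM in crRNA-13 mice (median 18.0) and 17.1 to 20.5 CPM in NTG mice (median 18.8). Its difference of 0.02 on the log2(CPM + 0.5) scale was far within the spread (exact permutation p = 0.833). Smcr8 and Wdr41, whose proteins form a complex with C9ORF72, differed by 0.05 and 0.04 on the log2 scale (adjusted p of 0.848 and 0.889 in edgeR). EGFP-KASH, which reports how much of the second vector a sorted nucleus expressed, measured 24.9 to 110 CPM in crRNA-13 mice (median 39.4) and 38.2 to 61.4 CPM in NTG mice (median 40.9). Mouse 2 alone accounted for the top of the crRNA-13 range, and the difference of -0.06 was within the spread (exact permutation p = 0.872).

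Across all genes, 105 of the 21768 tested (0.482%) were called, meaning a fold change above 1.2 and an adjusted p under 0.05 in edgeR's quasi-likelihood test with 4 factors of unwanted variation. Of these, 53 were higher in crRNA-13 mice (0.243%) and 52 lower (0.239%). At an unadjusted p under 0.05, 931 genes were higher (4.28%) and 1321 lower (6.07%). The calls rest on the factors: without them 0 genes were called, with 695 higher (3.19%) and 455 lower (2.09%) at an unadjusted p under 0.05. DESeq2 without factors called 62 genes and with them 350. The p-values were adjusted together over 5 comparisons, and adjusted over this comparison alone 1 gene was called, as lower. Each edgeR adjusted p given here for crRNA-13 against NTG in C9-BACexp mice is from the joint adjustment. Adjusted over this comparison alone the values are larger, as for Hspa8 (0.0204 jointly and 0.145 alone in edgeR). The changes were small, with a median absolute log2 fold change of 0.48, and 53 of the 105 lay under 0.5. Of the calls 34 had symbols of predicted genes or numbered loci and 17 a mean under 1 CPM. Values of the 6 crRNA-13 mice did not overlap those of the 6 NTG mice in 25 genes that were higher (0.115%) and 36 that were lower (0.165%), and 22 of these genes were called. In either direction, 1 of the 924 ways to divide 12 libraries into 6 and 6 gives no overlap. Absence of overlap was also a rule for naming genes, so where given it describes a gene and is no further support. Leaving out 1 library at a time gave 69 to 205 calls, the lowest without NTG mouse 5 and the highest without crRNA-13 mouse 1, and 15 genes were called in all 12 of these fits. With Xist as a covariate for sex 105 genes were called, 72 of which were among the 105 above.

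Several of the largest named rises were of genes that interferon is known to induce, of which Oas1a and Igtp are in the list of interferon-stimulated genes and H2-Q4 and H2-D1 in that of MHC class I presentation genes. Oas1a encodes an oligoadenylate synthetase, a sensor of double-stranded RNA that activates RNase L. Igtp and Irgm2 encode interferon-inducible GTPases, and Uba7 encodes the enzyme that activates the ubiquitin-like ISG15. H2-Q4 and H2-D1 encode a non-classical and a classical MHC class I heavy chain. The 100 bases before the transcription start of Oas1a, Igtp and Irgm2 are shown because each holds the core of the interferon-stimulated response element, the letters GAAA, any 2 bases and GAAA again, the site through which interferon acts on many of its target genes. Capitals mark the core (in Oas1a 2 overlapping cores), and the sequences are from RefSeq on GRCm38.p6, read 5′ to 3′ on the gene's strand.
Oas1a, chr5:120907526-120907625, minus strand: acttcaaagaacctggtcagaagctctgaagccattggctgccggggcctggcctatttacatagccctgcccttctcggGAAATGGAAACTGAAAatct
Igtp, chr11:58199456-58199555, plus strand: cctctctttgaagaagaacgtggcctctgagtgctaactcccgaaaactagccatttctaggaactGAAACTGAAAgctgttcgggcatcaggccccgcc
Irgm2, chr11:58214877-58214976, plus strand: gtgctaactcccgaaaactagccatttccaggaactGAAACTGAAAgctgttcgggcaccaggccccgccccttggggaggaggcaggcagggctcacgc
The cores begin at -20 in Oas1a, -34 in Igtp and -64 in Irgm2, counted from the start site. Shifted by 30 bases, the Igtp and Irgm2 stretches share 68 of 70 bases.

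The core, searched on both strands from 250 bases before to 50 after each start site, was found at 1079 of 27025 genes (3.99%), and at 600 of the 16287 tested genes with a promoter in the table (3.68%). Of the interferon-stimulated genes listed it was found at 19 of 38, of the MHC class I presentation genes at 5 of 19 (26.3%) and of the immediate early genes at 4 of 20. It was found at 5 of the 41 called genes that were higher (12.2%), namely Oas1a, Igtp, Irgm2, Uhmk1 and Gm31650, and at 2 of the 35 that were lower (5.71%). A match describes these letters and not a bound site.

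Oas1a (GRCm39 chromosome 5, 121031070 to 121046449, minus strand) measured 0.0638 to 5.57 CPM in crRNA-13 mice (median 0.822) and 0 to 0.165 CPM in NTG mice (median 0.0996). All crRNA-13 mice but mouse 7 were above every NTG mouse, whose values amounted to a few counts at most. Its log2 fold change of 3.64 (SE 0.83, adjusted p = 0.0202 in edgeR) depends at such counts on the fit's prior, and its call held without any single library. Igtp (chromosome 11, 58089840 to 58098417, plus strand) measured 1.12 to 26.2 CPM in crRNA-13 mice (median 6.98) and 0.552 to 2.64 CPM in NTG mice (median 1.57). The ranges overlapped, with crRNA-13 mice 1, 2, 3 and 4 above all NTG mice and mice 6 and 7 among them. Igtp rose by 2.40 on the log2 scale (SE 0.64, edgeR adjusted p = 0.0478), and was called in 3 of the 12 fits. Irgm2 (chromosome 11, 58090444 to 58113615, plus strand) overlaps Igtp in the annotation used for coordinates, whereas the authors quantified reads against an NCBI annotation. How reads were split between Igtp and Irgm2 was not tested. Irgm2 measured 0.830 to 14.3 CPM in crRNA-13 mice (median 4.17) and 0.414 to 1.58 CPM in NTG mice (median 1.05). The same mice, 1 to 4, were above all NTG mice. Irgm2 rose by 2.30 (SE 0.58, edgeR adjusted p = 0.0353). Uba7 (chromosome 9, 107852704 to 107861262) measured 1.67 to 16.9 CPM in crRNA-13 mice (median 4.42) and 0.852 to 1.63 CPM in NTG mice (median 1.28). The groups did not overlap, though crRNA-13 mouse 6 lay just above the highest NTG mouse. Uba7 rose by 2.07 (SE 0.53, edgeR adjusted p = 0.0400).

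H2-Q4 (chromosome 17, 35598586 to 35604274) measured 0.968 to 25.8 CPM in crRNA-13 mice (median 5.13) and 0.639 to 3.07 CPM in NTG mice (median 0.796). Mouse 6 was the only crRNA-13 mouse within the NTG range. H2-Q4 rose by 2.62 on the log2 scale (SE 0.61, edgeR adjusted p = 0.0235). H2-D1 (chromosome 17, 35481691 to 35486475) measured 4.3 to 31.7 CPM in crRNA-13 mice (median 10.0) and 4.52 to 12.5 CPM in NTG mice (median 5.34). Only mice 1 and 2 exceeded the highest NTG mouse. H2-D1 rose by 1.00 (SE 0.26, edgeR adjusted p = 0.0410). MHC class I genes, like the Oas1 family, are closely similar copies of each other, and how the quantification split their reads was not tested. Without crRNA-13 mouse 2, the highest for all 6 genes, Oas1a was still called, with a log2 fold change of 3.05 (edgeR adjusted p = 0.0440). The others then had log2 fold changes of 1.93 for Igtp, 1.86 for Irgm2, 1.63 for Uba7, 2.09 for H2-Q4 and 0.69 for H2-D1 and were not called (adjusted p = 0.122, 0.0910, 0.0728, 0.0886 and 0.214). Without mouse 1 the log2 fold change of H2-D1 was 0.78 (adjusted p = 0.137).

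**Figure D2:**
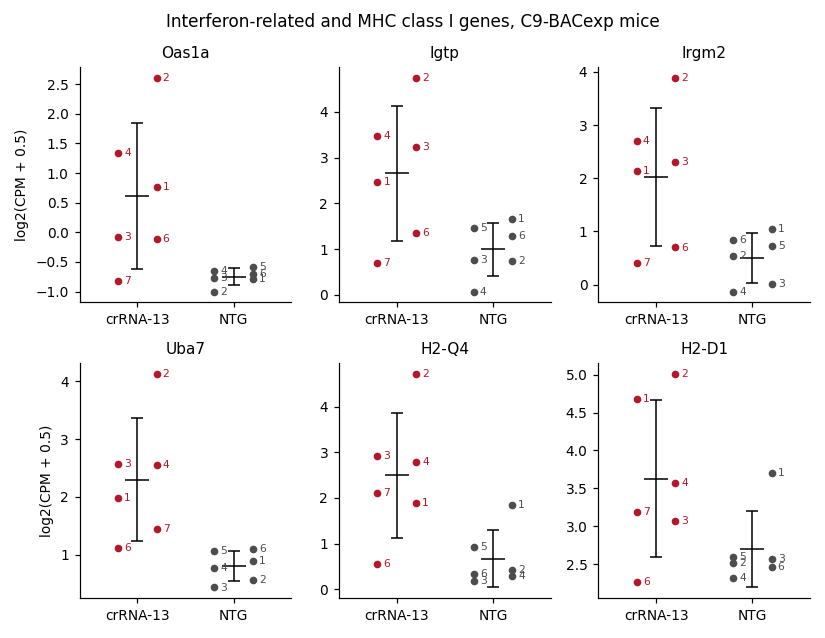
Levels of Oas1a, Igtp, Irgm2, Uba7, H2-Q4 and H2-D1 as log2(CPM + 0.5) in crRNA-13 and NTG C9-BACexp mice; each point is 1 mouse with its number, and bars give the mean ± SD (n = 6 each). Mouse 2 is the highest crRNA-13 mouse in every panel, and mice 6 and 7 are the lowest 2 crRNA-13 mice for Oas1a, Igtp, Irgm2 and Uba7.

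Of 55 interferon-stimulated genes listed, 52 passed the filter on low counts, and Igtp and Oas1a were called. At an unadjusted p under 0.05, 27 of the 52 were higher (51.9%, against 4.28% of all tested genes) and 0 lower, and without factors 22 were higher, against 3.19% of all. DESeq2 with the same factors called 12 of them, all higher. The median log2 fold change of the list was 1.12, against -0.02 over all tested genes. Among the members that were not called, Ifit1, an antiviral RNA-binding protein, had a log2 fold change of 2.45 (adjusted p = 0.0657 in edgeR). It was picked here after its values were seen. The mean log2 level of the list was 1.17, 3.09, 1.67, 2.01, 1.28 and 0.948 in crRNA-13 mice 1, 2, 3, 4, 6 and 7, against 0.824 to 1.09 in NTG mice and 0.624 to 0.879 in C9-BACexp mice given EGFP-KASH alone. All crRNA-13 mice but mouse 7 were above the NTG range, with mouse 2 well above the others. Summed over the list, the level was 187 to 913 CPM in crRNA-13 mice (median 281) and 164 to 204 CPM in NTG mice (median 189). Without mouse 2 the median log2 fold change of the list was 0.65 with factors and 0.77 without. The number of members called was 1 with any 1 NTG mouse left out or without crRNA-13 mouse 2 or 3, 4 without crRNA-13 mouse 1 or 6, and 8 without crRNA-13 mouse 7.

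Of the 24 MHC class I presentation genes tested, H2-D1 and H2-Q4 were called, and 10 were higher and 0 lower at an unadjusted p under 0.05, against 4.28% and 6.07% of all genes. DESeq2 with factors called 7, all higher. The list's median log2 fold change was 0.56. Nlrc5, the transactivator of the class I genes, had a log2 fold change of 1.76 (edgeR adjusted p = 0.0594), Tap1, a peptide transporter, one of 1.89 (adjusted p = 0.0635) and H2-K1, a classical heavy chain, one of 1.46 (adjusted p = 0.0799). These 3 were picked after their values were seen. The mean log2 level of the list was 1.6 to 3.20 in crRNA-13 mice (median 2.07) and 1.43 to 1.94 in NTG mice (median 1.51). The 2 ranges overlapped, and mouse 2 was again the highest. Without it the list's median was 0.37. Without crRNA-13 mouse 2 or NTG mouse 3 or 4, 0 members were called, while 1 member was called without NTG mouse 2, 5 or 6 or crRNA-13 mouse 4, and 3, 5 and 4 without crRNA-13 mouse 1, 6 or 7.

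Cells of the immune system were looked for by their markers. Of the 25 microglia markers tested 0 were called by edgeR or DESeq2 and 1 was lower at an unadjusted p under 0.05, their median log2 fold change was 0.04, and they summed to 64.8 to 127 CPM in crRNA-13 mice (median 77.2) and 69.1 to 94.9 CPM in NTG mice (median 86.9). Of 24 markers of infiltrating immune cells only 6 passed the filter. Cd3g, Nkg7, S100a8 and S100a9 were at 0 in all 12 libraries. Of the 6 tested, 3 had a log2 fold change above 0 and 3 under 0, with 0 at an unadjusted p under 0.05. Their median was 0.34 with factors and 0.41 without. The 6 summed to 1.67 to 5.20 CPM in crRNA-13 mice (median 2.31) and 1.79 to 9.27 CPM in NTG mice (median 2.48). The highest NTG value was mostly Cd4, at 7.37 CPM in NTG mouse 6. The highest crRNA-13 mouse was mouse 2, and EGFP-KASH was also highest in it. The part of either in the interferon values was not tested.

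In C57BL/6J mice given the same vectors (crRNA-13, n = 3, and NTG, n = 5), 48 of the 52 interferon-stimulated genes were higher at an unadjusted p under 0.05, against 6.35% of all genes, with a median log2 fold change of 2.38. Their mean log2 level was 1.90 to 4.88 in crRNA-13 mice and 0.835 to 2.7 in NTG mice. The difference between the genotypes was tested as an interaction. Its median was -1.18 over the list, with 17 of 52 members smaller in C9-BACexp at an unadjusted p under 0.05 (6.15% of all genes) and 0 called after adjustment.

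Immediate early genes were the second group of rises. Fosb, Npas4, Ier2 and Jun were called of the 26 tested. Fosb and Jun encode subunits of the AP-1 transcription factor, Npas4 a transcription factor that neurons induce on calcium entry, and Ier2 a nuclear regulator. Fosb (chromosome 7, 19036621 to 19043976, minus strand) measured 1.08 to 23.2 CPM in crRNA-13 mice (median 2.32) and 0.469 to 1.82 CPM in NTG mice (median 0.813). The range of crRNA-13 mice is set by mouse 2, and mice 3 and 6 lay within the NTG range. Fosb rose by 1.83 on the log2 scale (SE 0.47, edgeR adjusted p = 0.0415), and without mouse 2 its log2 fold change was 1.22 (adjusted p = 0.183). Npas4 (chromosome 19, 5034382 to 5040344, minus strand) measured 33.3 to 223 CPM in crRNA-13 mice (median 48.3) and 17.3 to 41.5 CPM in NTG mice (median 24.9). Mice 2, 4, 6 and 7 were above all NTG mice. Npas4 rose by 1.16 (SE 0.30, edgeR adjusted p = 0.0415), and without mouse 2 its log2 fold change was 0.76 (adjusted p = 0.138). Ier2 (chromosome 8, 85387960 to 85389483, minus strand) measured 0.664 to 1.53 CPM in crRNA-13 mice (median 1.04) and 0.247 to 0.608 CPM in NTG mice (median 0.489). The groups did not overlap. Ier2 rose by 1.2 (SE 0.32, edgeR adjusted p = 0.0492), and without mouse 2 its log2 fold change was 1.22 (adjusted p = 0.0536). Jun (chromosome 4, 94937271 to 94940459, minus strand) measured 4.31 to 6.78 CPM in crRNA-13 mice (median 4.82) and 2.93 to 4.31 CPM in NTG mice (median 3.35). The crRNA-13 mice other than mouse 7 were above every NTG mouse. Jun rose by 0.60 (SE 0.15, edgeR adjusted p = 0.0412), and without mouse 2 its log2 fold change was 0.51 (adjusted p = 0.0932).

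**Figure D3:**
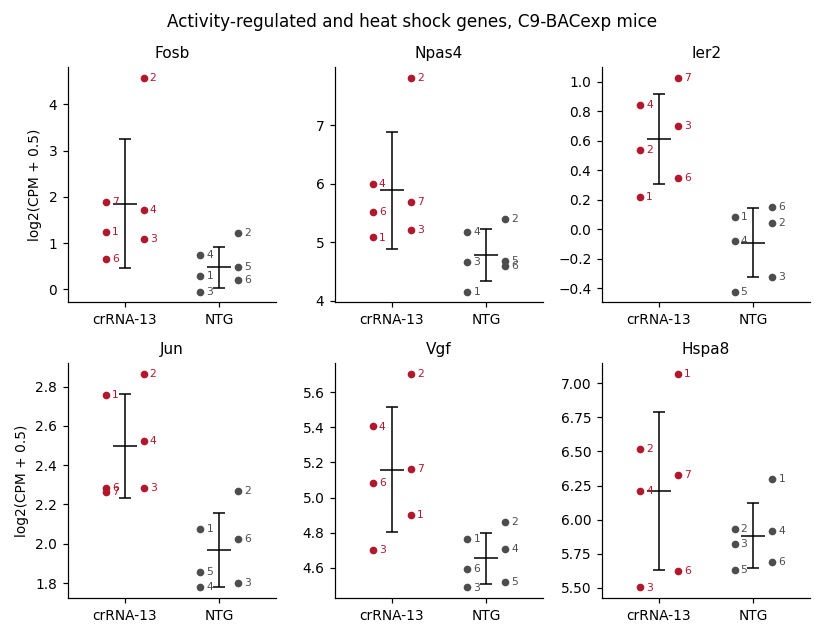
Levels of Fosb, Npas4, Ier2, Jun, Vgf and Hspa8 as log2(CPM + 0.5) in crRNA-13 and NTG C9-BACexp mice; each point is 1 mouse with its number, and bars give the mean ± SD (n = 6 each). Ier2 spans 0.664 to 1.53 CPM in crRNA-13 mice, above the 0.247 to 0.608 CPM of NTG mice, and mouse 2 stands above the other crRNA-13 mice for Fosb and Npas4.

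At an unadjusted p under 0.05, 20 of the 26 immediate early genes were higher and 0 lower (76.9% higher, against 4.28% of all tested genes), and 20 were also higher without factors, against 3.19% of all. DESeq2 called 11 of them with factors and 3 without, all higher. The list's median log2 fold change was 0.70, and 0.54 without mouse 2. Its mean log2 level was 3.47, 4.60, 3.10, 3.73, 3.43 and 3.95 in crRNA-13 mice 1, 2, 3, 4, 6 and 7, against 2.92, 3.54, 2.89, 3.36, 2.97 and 2.7 in NTG mice 1 to 6. Mice 2, 4 and 7 were above all NTG mice. Among the members that were not called, Egr4, a zinc finger transcription factor, did not overlap between the groups and had a log2 fold change of 0.93 (edgeR adjusted p = 0.0555). Arc, which controls trafficking of AMPA receptors at synapses, had one of 1.01 (adjusted p = 0.141), Fos one of 1.45 (adjusted p = 0.187) and Egr1 one of 0.78 (adjusted p = 0.127). These 4 were picked after their values were seen. The number of members called was 0 without crRNA-13 mouse 2 or 4 or NTG mouse 3, 5 or 6, 1 without NTG mouse 1 or 4, 2 without crRNA-13 mouse 7 and 4 to 6 without each of the others. In C9-BACexp mice given EGFP-KASH alone the mean log2 level was 2.76 to 3.78. In C57BL/6J mice the list's median log2 fold change of crRNA-13 over NTG was 0.21, with 1 member at an unadjusted p under 0.05. The difference between the genotypes had a median of 0.56 over the list. It reached an unadjusted p under 0.05 in 1 of the 26 members in the direction of a larger effect in C9-BACexp, against 4.31% of all genes. Vgf, a precursor of secreted neuropeptides that is induced by activity and was picked here after its value was seen, was also called. It measured 25.6 to 51.6 CPM in crRNA-13 mice (median 34.3) and 21.9 to 28.5 CPM in NTG mice (median 24.6), and rose by 0.53 (SE 0.12, edgeR adjusted p = 0.0250). Without mouse 2 its log2 fold change was 0.41 (adjusted p = 0.0636).

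The promoter windows of Fosb, Npas4 and Jun held no cyclic AMP response element with the letters TGACGTCA. That motif was found at 2 of the 20 immediate early genes with a promoter in the table (10.0%) and at 2.03% of all genes, and the window of Ier2 was not analysed here.

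Many of the other rises were of modest size. Mlc1, an astrocyte membrane protein mutated in a leukoencephalopathy, measured 3.87 to 5.51 CPM in crRNA-13 mice (median 4.60) and 1.88 to 3.50 CPM in NTG mice (median 3.10). The groups did not overlap. Mlc1 rose by 0.67 (SE 0.16, edgeR adjusted p = 0.0227) and stayed called without any single library. Herc3, a HECT-type ubiquitin ligase, measured 147 to 189 CPM in crRNA-13 mice (median 164) and 104 to 147 CPM in NTG mice (median 130). The lowest crRNA-13 mouse lay just above the highest NTG mouse. Herc3 rose by 0.38 (SE 0.08, edgeR adjusted p = 0.0130). Its log2 fold change in C57BL/6J mice was -0.21, and the difference between the genotypes had an unadjusted p of 0.000181 and an adjusted p of 0.119. Spty2d1, a histone chaperone, measured 7.52 to 11.7 CPM in crRNA-13 mice (median 7.89) and 5.47 to 6.20 CPM in NTG mice (median 5.87). It did not overlap between groups, rose by 0.55 (SE 0.12, edgeR adjusted p = 0.0134) and was called in all 12 fits. Inka2, an inhibitor of the kinase PAK4, measured 57.2 to 73.7 CPM in crRNA-13 mice (median 62.6) and 38.7 to 55.1 CPM in NTG mice (median 50.2). The groups did not overlap here either, and Inka2 rose by 0.38 (SE 0.07, edgeR adjusted p = 0.00607).

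Cdk7, the kinase of the general transcription factor TFIIH, had the smallest p among called genes with a named symbol and a mean of at least 1 CPM. It measured 31.3 to 39.6 CPM in crRNA-13 mice (median 37.6) and 29.2 to 32.1 CPM in NTG mice (median 30.0), and only crRNA-13 mouse 2 lay within the NTG range. It rose by 0.27 (SE 0.05, edgeR adjusted p = 0.00559), close to the fold limit, and was called in 4 of the 12 fits that left out 1 library. Fbxw7, a substrate receptor of an SCF ubiquitin ligase, rose by 0.28 (SE 0.06, edgeR adjusted p = 0.0141). Shroom3, an actin-binding protein, rose by 0.51 (SE 0.11, edgeR adjusted p = 0.0112), with ranges that overlapped. Trp53inp2, a regulator of autophagy, rose by 0.40, Adnp, a neuroprotective chromatin factor, by 0.34 and Zbtb7a, a transcriptional repressor, by 0.31 (edgeR adjusted p = 0.0197, 0.0197 and 0.0209). Each of these last 3 was higher in all 6 crRNA-13 mice than in any NTG mouse. Btc, a ligand of the EGF receptor, measured 0.465 to 3.88 CPM in crRNA-13 mice (median 2.31) and 0.416 to 0.767 CPM in NTG mice (median 0.482). Mice 2 and 6 lay within the NTG range and the other 4 above it, and Btc rose by 1.80 (SE 0.43, edgeR adjusted p = 0.0256). Znf41-ps, a zinc finger pseudogene whose reads may be shared with its relatives, rose by 1.04 (SE 0.27, edgeR adjusted p = 0.0401). Gm35887, a predicted gene picked after its values were seen, measured 0.830 to 7.29 CPM in crRNA-13 mice (median 2.47) and 0.172 to 0.530 CPM in NTG mice (median 0.355). Its groups did not overlap, and it rose by 3.09 (SE 0.60, edgeR adjusted p = 0.00645) and was called in all 12 fits.

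Hspa8, the constitutive HSP70 chaperone, was the 1 called member of 17 heat shock genes, where 0.243% of all tested genes were called higher. At an unadjusted p under 0.05, 4 of the 17 were higher (23.5%, against 4.28% of all) and 1 lower (against 6.07% of all). Without factors 2 were higher (11.8%, against 3.19% of all) and 0 lower. Hspa8 measured 44.8 to 134 CPM in crRNA-13 mice (median 76.7) and 49.1 to 78.3 CPM in NTG mice (median 58.0). Mice 1, 2 and 7 lay above the NTG range, mice 3 and 6 below it and mouse 4 within it, so the crRNA-13 mice varied more than the NTG mice. Hspa8 rose by 0.33 (SE 0.08, edgeR adjusted p = 0.0204), and without mouse 1 its log2 fold change was 0.16 (adjusted p = 0.325). Cx3cl1, the neuronal ligand of the microglial receptor Cx3cr1, which was picked after its value was seen, rose by 0.27 (SE 0.06, edgeR adjusted p = 0.0210), and without mouse 2 its log2 fold change was 0.15 (adjusted p = 0.231).

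**Figure D4:**
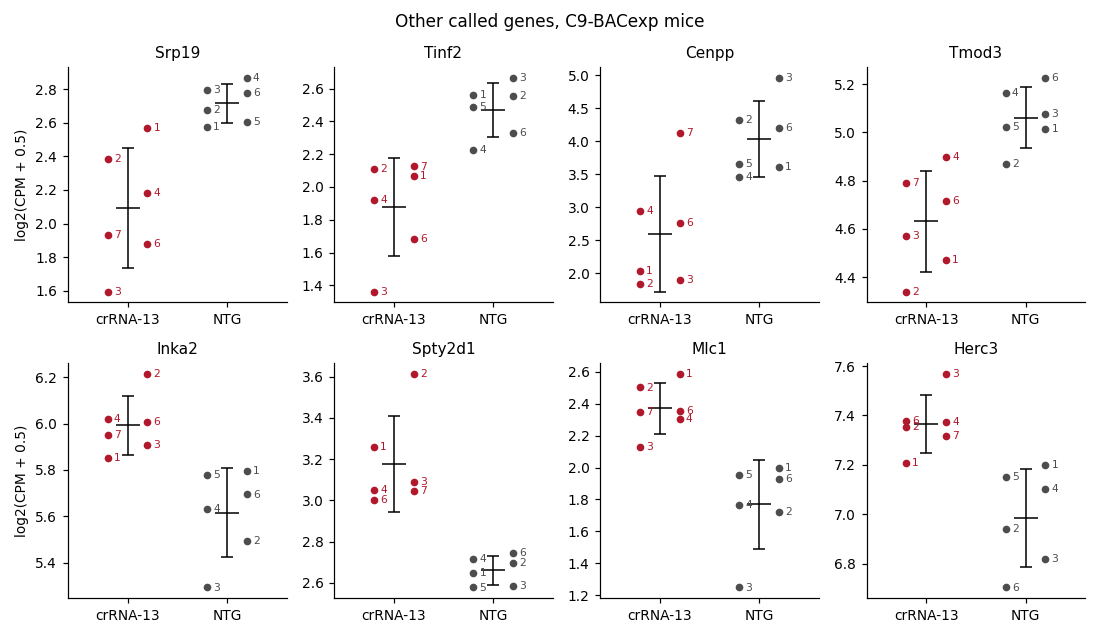
Levels of called genes outside the interferon and immediate early groups, as log2(CPM + 0.5) in crRNA-13 and NTG C9-BACexp mice; each point is 1 mouse with its number, and bars give the mean ± SD (n = 6 each). Srp19 and Tinf2 are lower, and Spty2d1, Inka2, Mlc1 and Herc3 higher, in every crRNA-13 mouse than in any NTG mouse, while Cenpp and Tmod3 overlap.

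The falls belonged to genes of varied function. Cenpp, a centromere protein, measured 3.08 to 16.9 CPM in crRNA-13 mice (median 4.95) and 10.5 to 30.5 CPM in NTG mice (median 15). All crRNA-13 mice but mouse 7 were below every NTG mouse. Cenpp fell by 1.49 on the log2 scale (SE 0.36, edgeR adjusted p = 0.0275) and was called in 8 of the 12 fits that left out 1 library, not in those without crRNA-13 mouse 1 or 2 (adjusted p = 0.0618 and 0.0771). Srp19 (chromosome 18, 34463837 to 34470906, plus strand), a subunit of the signal recognition particle, measured 2.52 to 5.44 CPM in crRNA-13 mice (median 3.68) and 5.45 to 6.79 CPM in NTG mice (median 6.12). The highest crRNA-13 mouse lay just under the lowest NTG mouse. Srp19 fell by 0.70 (SE 0.15, edgeR adjusted p = 0.0107) and was called in all 12 fits. Tinf2, a telomere-protecting shelterin subunit, measured 2.07 to 3.86 CPM in crRNA-13 mice (median 3.49) and 4.17 to 5.84 CPM in NTG mice (median 5.24). The groups did not overlap, and Tinf2 fell by 0.66 (SE 0.16, edgeR adjusted p = 0.0261). Tmod3, which caps actin filaments, measured 19.8 to 29.3 CPM in crRNA-13 mice (median 24.5) and 28.7 to 36.9 CPM in NTG mice (median 32.6). All crRNA-13 mice but mouse 4 were below every NTG mouse. Tmod3 fell by 0.43 (SE 0.09, edgeR adjusted p = 0.00995) and was called in all 12 fits.

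Fbxw23, an F-box gene of a family with many similar copies, fell by 1.21 (SE 0.32, edgeR adjusted p = 0.0464). Its log2 fold change in C57BL/6J mice was 0.98, and the difference between the genotypes had an adjusted p of 0.132. Pkd2l1, a polycystin family ion channel, measured 5.98 to 29.4 CPM in crRNA-13 mice (median 12.3) and 16.1 to 35.8 CPM in NTG mice (median 24), and fell by 0.96 (SE 0.25, edgeR adjusted p = 0.0450). Pias2, a SUMO ligase, Zdhhc4, a palmitoyltransferase, and Eprs, the glutamyl-prolyl-tRNA synthetase, were each lower in all 6 crRNA-13 mice than in any NTG mouse. They fell by 0.30, 0.41 and 0.29 (edgeR adjusted p = 0.0152, 0.0155 and 0.0198). Pias2 measured 97.2 to 127 CPM in crRNA-13 mice (median 118) and 130 to 151 CPM in NTG mice (median 145). Fam126a, a subunit of a phosphatidylinositol 4-kinase complex, fell by 0.63, Ndufb3, a subunit of respiratory complex I, by 0.62, Slc26a11, an anion transporter, by 0.48, Ece2, a metalloprotease, by 0.43 and Anapc4, a subunit of the anaphase-promoting complex, by 0.37 (edgeR adjusted p = 0.0310, 0.0443, 0.0263, 0.0255 and 0.0119). The ranges of these last 5 overlapped between the groups. Lamp2, a lysosomal membrane protein, was the 1 called member of 48 autophagy genes, where 0.239% of all tested genes were called lower. Lamp2 measured 38.4 to 52.9 CPM in crRNA-13 mice (median 46.5) and 46.9 to 68.3 CPM in NTG mice (median 54.7). It fell by 0.28 (SE 0.07, edgeR adjusted p = 0.0333). At an unadjusted p under 0.05, 1 of the 48 was higher and 8 lower, against 4.28% and 6.07% of all genes. Without factors 0 were higher and 3 lower, against 3.19% and 2.09% of all. Pcm1, a protein of centriolar satellites, had a log2 fold change of -0.22 with an adjusted p of 0.0132 in edgeR and was not called, being under the fold limit.

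The markers of other cell types gave few calls. Of 23 inhibitory neuron markers 0 were called by edgeR, limma or DESeq2. At an unadjusted p under 0.05, 8 were lower and 0 higher, against 6.07% of all genes, and without factors 3 were lower, against 2.09% of all. Of the 23, 21 had a log2 fold change under 0, against 11903 of all 21768 tested genes, and the median was -0.28. Their summed level was 1348 to 1906 CPM in crRNA-13 mice (median 1551) and 1732 to 2035 CPM in NTG mice (median 1961). Dlx6os1, a long non-coding RNA of GABAergic neurons, had a log2 fold change of -0.47 and Adarb2, a marker of some interneurons, one of -0.40 (edgeR adjusted p = 0.116 and 0.150). Markers of striatal projection neurons (20 tested) had a median of -0.30, with 0 called and 0 at an unadjusted p under 0.05. They summed to 2533 to 5100 CPM in crRNA-13 mice (median 3330) and 2047 to 12432 CPM in NTG mice (median 3346). Pan-neuronal markers had a median of 0.04. Astrocyte markers summed to 1032 to 1209 CPM in crRNA-13 mice (median 1119.6) and 929 to 1302 CPM in NTG mice (median 998), with Mlc1 the 1 call of 23 (2 by DESeq2) and a median log2 fold change of 0.24. At an unadjusted p under 0.05, 5 of the 23 were higher and 0 lower (4.28% of all genes higher), and 4 were higher without factors (3.19% of all). Oligodendrocyte markers summed to 1208 to 8033 CPM in crRNA-13 mice (median 2011) and 2026 to 4639.9 CPM in NTG mice (median 2459.9). Mouse 1 was the highest of either group. The list's median was -0.09 with factors and 0.18 without, so its direction depends on them. By edgeR and DESeq2 0 of 30 were called, with 0 higher and 1 lower at an unadjusted p under 0.05. The part of cell composition in the called genes was not tested.

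**Figure D5:**
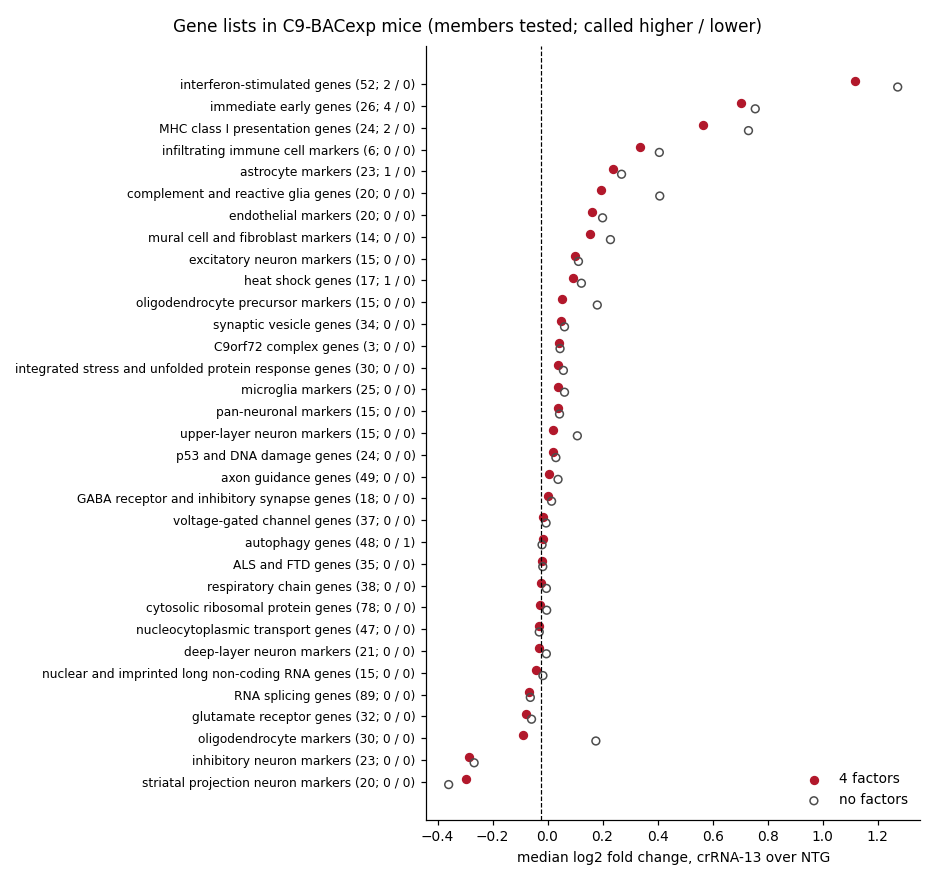
Median log2 fold change of crRNA-13 over NTG in C9-BACexp mice (horizontal axis) for each gene list, with 4 factors (filled) or none (open); numbers after each name give members tested and members called higher and lower, and the dashed line is the median of all tested genes, -0.02; sex-linked genes are not drawn. Interferon-stimulated genes, immediate early genes and MHC class I presentation genes lie farthest to the right at 1.12, 0.70 and 0.56 with factors, and of the lists drawn inhibitory and striatal neuron markers lie farthest to the left.

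In the remaining lists edgeR made 0 calls. Complement and reactive glia genes (20 tested) had a median of 0.19 with factors and 0.41 without. Of these, 3 were higher and 0 lower at an unadjusted p under 0.05, and 5 were higher without factors, against 3.19% of all genes. Endothelial markers (20 tested, 2 higher and 0 lower at that level) had a median of 0.16, and mural cell and fibroblast markers (14 tested, 1 higher and 0 lower) one of 0.15. DESeq2 with factors called 1 gene each of the complement and reactive glia, oligodendrocyte precursor and upper-layer neuron lists and 2 of the pan-neuronal list, all higher. The 6 sex-linked genes tested had a median of -1.28, with 0 at an unadjusted p under 0.05, and 4 of the 6 crRNA-13 and 3 of the 6 NTG libraries were female by Xist. None of 89 RNA splicing genes was called by edgeR, with 1 higher and 9 lower at an unadjusted p under 0.05 and a median of -0.07, where 6.07% of all genes were lower. Rbm5 and Srsf4, a splicing regulator and a serine/arginine-rich splicing factor, differed by -0.14 and -0.16 on the log2 scale (adjusted p of 0.111 and 0.176 in edgeR). None of 35 genes linked to ALS and FTD was called by edgeR, with 1 higher and 2 lower at an unadjusted p under 0.05. The smallest p in that list belonged to Tuba4a, a tubulin, with a log2 fold change of 0.25, and Hnrnpa2b1, an RNA-binding protein, with one of -0.14 (adjusted p = 0.126 and 0.277). DESeq2 called 0 members of either list. Nucleocytoplasmic transport genes (47 tested) gave 2 higher and 7 lower at an unadjusted p under 0.05, and glutamate receptor genes (32 tested) 0 higher and 4 lower, against 6.07% of all genes lower. Without factors, 2 splicing, 1 transport and 2 glutamate receptor genes were lower at that level, against 2.09% of all. None of 24 p53 and DNA damage genes was called (3 higher and 1 lower at an unadjusted p under 0.05), nor any of 30 genes of the integrated stress and unfolded protein responses, where 0 reached that level. Synaptic vesicle genes (34 tested, 3 higher and 2 lower at that level), voltage-gated channel genes (37 tested, 4 higher and 1 lower), respiratory chain genes (38 tested, 0 higher and 1 lower), cytosolic ribosomal protein genes (78 tested, 0 higher and 1 lower) and the transport and glutamate receptor genes likewise held 0 calls by edgeR, limma or DESeq2.

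The test of whether the effect of crRNA-13 over NTG differed between genotypes called 1 gene, Gm14296, with an adjusted p of 0.0198 in edgeR. Gm14296, a predicted gene named after its values were seen, was listed at 0 in all 6 crRNA-13 mice and at 53.6 and 54.1 CPM in NTG mice 4 and 5, with 0 in the other 4 NTG mice. It was also present in 1 of 3 C57BL/6J crRNA-13 mice at 85.7 CPM and in 1 of 4 EGFP-KASH-only C57BL/6J mice at 91.9 CPM. So the gene was either at 0 or at a high level in single mice of several groups. At an unadjusted p under 0.05 the difference was reached by 2277 genes, and without crRNA-13 mouse 1, in place of 1 call there were 80.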

How the data were processed

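The members and gene lists were chosen with earlier results of these data known. Per the study's methods, nuclear RNA depleted of ribosomal RNA was sequenced as single reads, and the authors quantified reads with Salmon 1.10.0 against spliced and unspliced mouse transcripts (GRCm39), 3 human C9ORF72 transcripts and EGFP-KASH, and summed them per gene by tximport in R 4.3.1. The deposited values are expected counts (length-scaled estimated counts) for 39338 rows, of which 21768 passed edgeR's filterByExpr (minimum count 10, minimum total 15). The counts were rounded, scaled by TMM and fitted in R 4.3.3 with edgeR 4.0.16 (robust quasi-likelihood F test) in 1 model of the 6 groups and 27 libraries with 4 factors estimated from the residuals of a first fit. Benjamini-Hochberg adjustment ran over the study's 5 comparisons together, and over genes alone for the difference between genotypes. A call needed a fold change above 1.2 and an adjusted p under 0.05. SE is the log2 fold change over the square root of F. CPM are on TMM-scaled library sizes, and plots and permutation tests used log2(CPM + 0.5). Human transcripts, EGFP-KASH and mouse C9orf72 were compared by exact permutation of the 12 libraries, adjusted over 6 quantities.

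Among genes with at least 1 CPM and a named symbol, those named were the 10 largest rises and falls among calls and the 10 smallest p, called or not. Also named were up to 4 called or the 2 leading members of each of 34 lists. Up to 10 called genes without overlap and up to 5 with the smallest p of the genotype difference were added. Genes outside the rule are marked in the text as picked after their values were seen. Coordinates are from the GRCm39 annotation, and promoter windows from RefSeq (GRCm38.p6). Alternatives were RLE scaling, other filters, 0 or 2 factors, only the 12 libraries, limma 3.58.1, DESeq2 1.42.0, a replicate block, Xist as a covariate and leaving out each library. The edgeR fit without factors and the permutation test were tested on simulated data. The fit with 4 factors, on which the calls rest, and those by limma and DESeq2 were not. Mice are the replicates, and intervals of counting were not used.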

Additional observations from a re-analysis of the deposited data

Results flagged for a closer look

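In 14 of 202 groups of 6 values tested, 1 mouse lay apart from the others of its group by more than Dixon's 95% critical value of 0.625, where chance flags about 1 in 20. Of these, 5 concern crRNA-13 mouse 2: it was the highest of its group for Fosb at 23.2 CPM, Npas4 at 223 CPM, Nptx2, a neuronal pentraxin, at 206.5 CPM and the mean log2 level of the infiltrating immune cell markers at 0.309, and the lowest for Wdr41 at 25.1 CPM. Mouse 1 of the crRNA-13 group was the highest for Hnrnpa2b1 at 131.6 CPM and for the mean log2 level of the C9orf72 complex genes at 4.78, and crRNA-13 mouse 3 was the highest for Adarb2 at 492.4 CPM. Among NTG mice, mouse 1 was the highest for H2-D1 at 12.5 CPM and for the mean log2 levels of the MHC class I presentation genes at 1.94 and of the autophagy genes at 5.34. NTG mouse 3 was the lowest for Mlc1 at 1.88 CPM and for the mean log2 level of the upper-layer neuron markers at 4.60, and NTG mouse 6 was the lowest for the excitatory neuron markers at 6.18. The effect of crRNA-13 over NTG on Gm14296 differed between genotypes by the edgeR interaction test, with an adjusted p of 0.0198. What set these mice apart was not tested.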

How the results depend on the processing

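The 105 calls depended both on the factors and on the joint adjustment over 5 comparisons. Without factors, with only the 12 libraries (no factors or 2 factors), by limma without factors, with no factors and without crRNA-13 mouse 2, and with a replicate block in the 12 libraries, the count was 0, as were the counts of list members, interferon-stimulated genes, MHC class I genes and immediate early genes. With 2 factors 27 genes were called (0 in lists), by DESeq2 350 with factors and 62 without, without crRNA-13 mice 1 and 2 (chosen after seeing the data) 338, and adjusted alone 1 (0 in lists). Over the fits without 1 library the count was 69 to 205. List members called (11) numbered 5 without the filter, 41 and 4 by DESeq2 with and without factors, 28 without crRNA-13 mice 1 and 2, 7 without NTG mice 1 and 6, and 4 to 21 without 1 library. Interferon-stimulated genes called (2) numbered 1 without the filter, 5 at 1 CPM or more, 1 by limma with factors, 12 and 1 by DESeq2, 5 with the replicate block and factors, 0 without crRNA-13 mice 1 and 2 or NTG mice 1 and 6, and 1 to 8 without 1 library. MHC class I genes called (2) numbered 1 without the filter, 3 by limma, 7 and 0 by DESeq2, 1 with the block, 6 with Xist, 0 without crRNA-13 mice 1 and 2, and 0 to 5 without 1 library. Immediate early genes called (4) numbered 0 without the filter, 11 by DESeq2 with factors, 0 with the block, 1 with Xist, 1 without crRNA-13 mice 1 and 2 or NTG mice 1 and 6, and 0 to 6 without 1 library. The genotype difference called 1 gene, 0 by edgeR without factors, by limma or with the block, 242 and 23 by DESeq2 with and without factors, 213 without crRNA-13 mice 1 and 2, and 1 to 80 without 1 library. Causes beyond the fewer samples or genes of a setting were not tested.

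Medians over the fits without 1 library were 0.65 to 1.24 for interferon-stimulated genes, 0.37 to 0.65 for MHC class I genes, 0.54 to 0.90 for immediate early genes and -0.38 to -0.21 for inhibitory neuron markers. Leaving out 1 library moved V1 between -0.43 and -0.26, V2 between 0.12 and 0.28, V3 between -0.70 and -0.36, the sum between -0.20 and -0.07, EGFP-KASH between -0.331 and 0.0929 and mouse C9orf72 between -0.0629 and 0.0637. Smcr8 lay between -0.0659 (without crRNA-13 mouse 1) and 0.11 and was -0.12 without mice 1 and 2, and Wdr41 lay between -0.0124 (without NTG mouse 4) and 0.0999. Same-numbered mice correlated at -0.0551 to 0.356, and only number 1 correlated best with its own. With 5 pairs this cannot decide whether the numbers pair the mice. With the replicate block 72 genes were called with factors. By sign flips over the 5 pairs V3 differed by -0.62 and EGFP-KASH by 0.0713 (exact p = 0.0625, the smallest possible, and 0.875). The 42 called genes named kept their direction in all 791 values of the other settings, 346 of them called and 445 not. These genes were chosen by their calls in the same libraries, and some settings reuse the main fold changes. The kept direction is therefore no independent support. Of the 42 genes, 10 stayed called without any 1 library. At these depths, 3 counts amount to 0.0801 to 0.135 CPM, and lower levels could not be compared.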
